A study of Homo sapiens with 6 samples.

Results

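Ceruloplasmin (*CP*) was measured together with 9 other genes that oxidise, export, import, store or sense cellular iron, in bronchial epithelial cells exposed to cockroach allergen with or without an agonist of the aryl hydrocarbon receptor (AhR). The 10 genes, *CP*, *HEPH*, *SLC40A1*, *SLC11A2*, *TFRC*, *FTH1*, *FTL*, *IREB2*, *ACO1* and *NCOA4*, were taken by symbol from 61228 genes in the count table. The set was built around the difference of *CP* between the groups, so the values of all 10 genes in this contrast are given as a description, with no test. 9 of the 10 passed the filter on low counts; *HEPH* did not. *CP* was 4.54-fold lower with the agonist, and the other 8 genes tested lay between −0.19 and 0.27 on the log2 scale.

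The cells were HBECs (HBE cells in the labels), an immortalised human bronchial epithelial line of wild-type (WT) genotype. Both groups received cockroach extract (CRE) for 24 h: the CRE group received CRE alone, and the CRE+VAF347 group was given the AhR agonist VAF347 before CRE. AhR is a ligand-activated transcription factor best known for switching on the cytochrome P450 genes of xenobiotic metabolism. Each group held 3 libraries of poly(A) RNA, cells without CRE were not analysed here, and the labels do not say whether replicates are separate cultures, so p-values measure only the spread between these libraries, which may be technical.

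The libraries held 8873160 to 10750283 counts, so that 3 counts correspond to 0.279 to 0.338 CPM, the count scaled to the size of its library. CRE replicate 3 stood apart from the other CRE libraries. The log2 fold changes of *SLC40A1*, *FTH1*, *FTL*, *ACO1* and *NCOA4* are also given without it below. When it was left out, *CP* was at −2.24, *SLC11A2* at −0.15, *TFRC* at −0.15 and *IREB2* at 0.10 on the log2 scale. Markers were used as a check of the labels. *CYP1A1* and *CYP1B1*, classical AhR targets, were at 0.624 and 69.7 CPM with CRE and at 46.7 and 614 CPM with CRE+VAF347. Of 8 epithelial markers 6 were above the level of 3 counts, with *EPCAM* at 330 to 364 CPM and *KRT8* at 1606 to 1769 CPM, whereas *KRT14* and *TP63* had at most 2 counts. The secretory markers *SCGB1A1*, *SCGB3A1* and *MUC5AC* were at 0, and of 6 secretory and ciliated markers only *FOXJ1* was above the level of 3 counts, at 0.698 to 1.96 CPM. Of 7 markers of other cells, *CD68*, *COL1A1* and *COL1A2* were above it, *HBB* was at 0, and *PTPRC*, *PECAM1* and *ALB* had at most 3 counts. The sum of those 7 was 63.8 to 69.2 CPM with CRE and 52.7 to 60.8 CPM with CRE+VAF347, and its part in the values below was not tested.

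Iron enters most cells as transferrin bound to the transferrin receptor, crosses the endosomal membrane through a divalent metal transporter, is stored in ferritin and leaves through ferroportin, with a copper-containing ferroxidase oxidising it on the way out. Iron regulatory proteins bind a short RNA hairpin, the iron-responsive element, when iron is scarce. Bound at the 5′ end of an mRNA they block its translation, and bound in the 3′ UTR of the transferrin receptor mRNA they protect it from decay, so that ferritin and ferroportin are controlled largely at a step that mRNA levels do not show.

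The hairpins are printed because they are the sequence by which several of the genes are controlled together. The GENCODE v44 transcripts were searched for a bulged C, 5 paired bases of upper stem, a 6-base loop CAGTGN, and at least 3 of 5 paired bases of lower stem. Matches were found in 4 of the 10 genes, 7 matches in all. Each is shown 5′ to 3′ over 27 bases as DNA, with the bulged C and the loop in capitals:
*FTH1* 5′ UTR: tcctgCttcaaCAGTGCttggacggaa
*FTL* 5′ UTR: tcttgCttcaaCAGTGTttggacggaa
*SLC40A1* 5′ UTR: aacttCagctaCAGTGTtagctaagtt
*TFRC* 3′ UTR, A: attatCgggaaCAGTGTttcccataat
*TFRC* 3′ UTR, B: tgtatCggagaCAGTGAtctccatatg
*TFRC* 3′ UTR, C: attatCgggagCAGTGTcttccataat
*TFRC* 3′ UTR, D: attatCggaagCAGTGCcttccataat

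On GRCh38 the *FTH1* hairpin lies at chr11:61967575-61967601 on the minus strand, that of *FTL* at chr19:48965336-48965362 on the plus strand, and that of *SLC40A1* at chr2:189580662-189580688 on the minus strand. The 4 of *TFRC* lie on the minus strand of chromosome 3, A at chr3:196050464-196050490, B at chr3:196050511-196050537, C at chr3:196050576-196050602 and D at chr3:196050980-196051006, within 543 bases of each other. Letters A to D follow rising coordinate and are labels used here only. On the minus strand A is the one nearest the 3′ end of the transcript. The ferritin hairpins differ at 2 of 27 positions, C3T and C17T from *FTH1* to *FTL*, counted from 1 at the 5′ end. The same search found a match in the 5′ UTR of 15 of 19217 genes (0.0781%) and in the 3′ UTR of 33 of 19583 genes (0.169%). A match describes the letters only. For *CP*, *HEPH*, *SLC11A2*, *IREB2*, *ACO1* and *NCOA4*, these letters were not found in the annotated transcripts. The search is strict and can miss known elements, as with *EPAS1* below. The lack of a match therefore does not show that a gene escapes the iron regulatory proteins.

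*CP* encodes the multicopper ferroxidase of plasma, made mainly by the liver and also by airway epithelium, and is classed as an acute phase protein. It lies on chromosome 3 from 149162410 to 149221829, on the minus strand. The CRE libraries held 32.4, 34.6 and 31.5 estimated counts of *CP*, and the CRE+VAF347 libraries held 6.53, 11 and 2.21. As CPM these were 3.31, 3.43 and 2.99 with CRE, against 0.786, 1.16 and 0.200 with CRE+VAF347. The groups did not overlap, the CRE libraries were close to each other, and CRE+VAF347 replicate 3 was the lowest of the 6, below the level of 3 counts. The mean was 3.25 ± 0.229 CPM with CRE and 0.714 ± 0.483 CPM with CRE+VAF347 (SD, n = 3 each), and the log2 fold change was −2.18 with a standard error (SE) of 0.38 from edgeR's quasi-likelihood fit. In this bulk RNA, fewer cells expressing a gene and less RNA per cell cannot be told apart.

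*CP* was a low gene in both groups. It passed the filter on low counts through the CRE group alone, since only 1 CRE+VAF347 library reached the level the filter asks for. Only 10.1% of the genes tested had a lower mean log2 CPM, and the 3 libraries of a group summed to 98.5 counts with CRE and 19.7 with CRE+VAF347. Among the 1482 genes within 0.5 log2 CPM of *CP*, the median SE of the log2 fold change was 0.29, below the 0.38 of *CP*. In TPM, which scales for transcript length as well as depth, *CP* was at 3.36, 1.62 and 2.07 with CRE and at 0.629, 0.648 and 0.0925 with CRE+VAF347. The groups did not overlap on this scale either, but the CRE libraries were more spread, with a mean of 2.35 ± 0.902 TPM against 0.456 ± 0.315 TPM (SD, n = 3 each). The mean length of the *CP* transcripts that Salmon assigned reads to, relative to the median gene of the library, was 0.632, 1.34 and 1.04 with CRE and 0.753, 1.16 and 1.56 with CRE+VAF347. These lengths rest on few counts and overlapped between the groups. With one library left out at a time, the log2 fold change of *CP* ranged from −2.74 to −1.73.

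**Figure D1:**
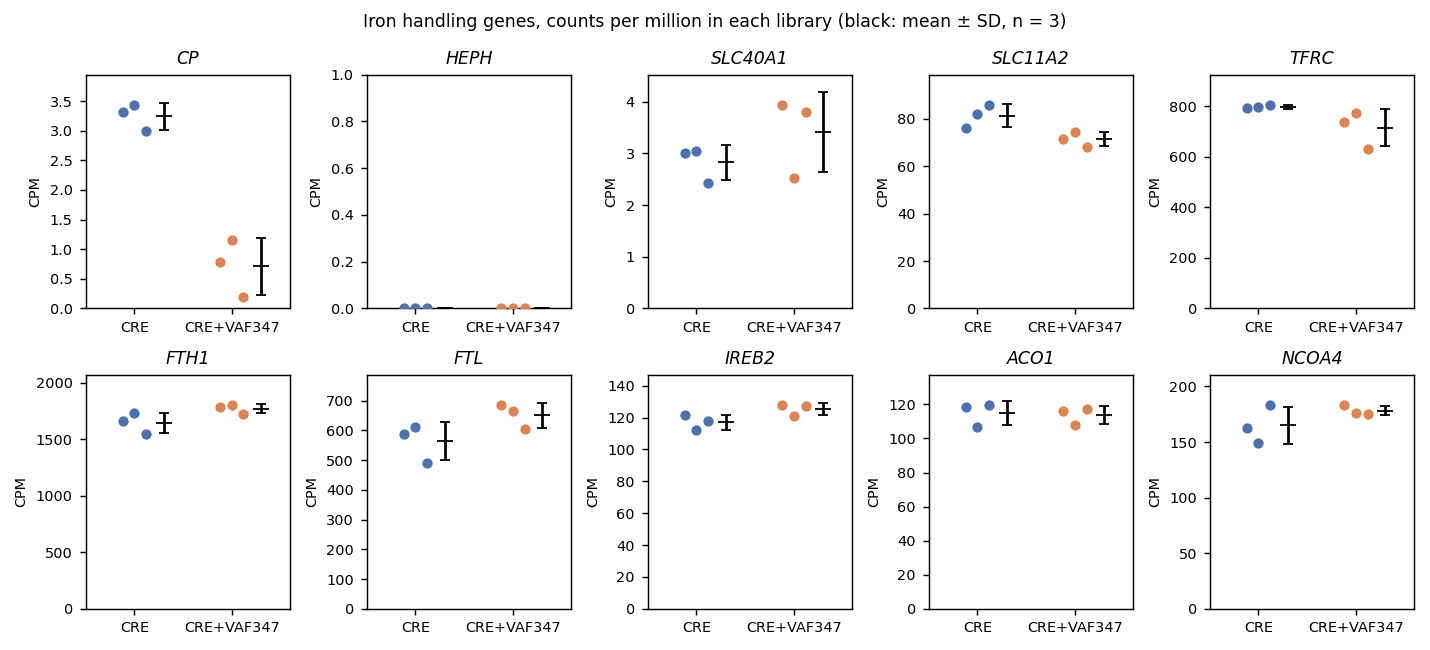
CPM of each of the 10 genes in a panel of its own, each axis linear and starting at 0; points are the libraries of the CRE and CRE+VAF347 groups, and black marks are the mean ± SD (n = 3). In *CP* the CRE+VAF347 libraries (0.200 to 1.16 CPM) sit well below the CRE libraries (2.99 to 3.43 CPM), and *HEPH* is at 0 throughout.

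*HPS3*, which overlaps *CP* on the other strand, was at 48.3 ± 5.81 CPM with CRE and 48.3 ± 2.34 CPM with CRE+VAF347 (SD, n = 3 each). Whether strand was used in counting is not given in the sources used here. *CPHL1P*, an annotated transcribed unitary pseudogene 7526 bases from *CP* on the same strand (chromosome 3, 149229356 to 149291800), was looked at after its values had been seen. Its counts were 8, 8 and 4 with CRE and 2, 1 and 1 with CRE+VAF347. The means were 0.662 ± 0.251 CPM with CRE and 0.143 ± 0.0706 CPM with CRE+VAF347 (SD, n = 3 each). The CRE+VAF347 counts lay below the level of 3 counts, and the row was too low to be tested.

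*HEPH* encodes hephaestin, the membrane-bound relative of ceruloplasmin that works beside ferroportin in the gut. It is located on chromosome X (66162671 to 66268867, plus strand) and had 0 counts in all 6 libraries, which allows up to 0.279 to 0.338 CPM per library (counting error only). *HEPHL1*, the remaining ferroxidase of this family, had at most 3 counts in any library and was not tested. Of these 3 genes *CP* had the most counts summed over each group. In CRE+VAF347 replicate 3 alone, *HEPHL1* had 3 counts and *CP* 2.21.

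*SLC40A1* encodes ferroportin, the known exporter of ferrous iron from the cell. It lies on the minus strand of chromosome 2 from 189560590 to 189583758. The libraries held 29, 31 and 26 counts with CRE and 35, 24 and 38 with CRE+VAF347, which is 3.00, 3.04 and 2.43 CPM against 3.93, 2.52 and 3.79 CPM. The groups overlapped, with CRE+VAF347 replicate 2 among the CRE libraries. The log2 fold change was 0.27 (SE 0.23), from means of 2.82 ± 0.342 and 3.42 ± 0.776 CPM (SD, n = 3 each), and with one library left out it ranged from 0.16 to 0.44, with 0.17 without CRE replicate 3. *SLC40A1* and *CP* were at similar levels per length with CRE, at 2.01 and 2.35 TPM. With CRE+VAF347 every library had more *SLC40A1* (1.72 to 2.67 TPM) than *CP* (0.0925 to 0.648 TPM).

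*TFRC* encodes transferrin receptor 1, the main route of iron into dividing cells. It lies on the minus strand of chromosome 3 from 196012511 to 196082153. The 4 hairpins that the search matched in it are those shown as A to D. It was at 791.6, 795.9 and 804.8 CPM with CRE and at 738.5, 772.9 and 631.8 CPM with CRE+VAF347. Every CRE+VAF347 library was below every CRE library, and replicate 3 was the lowest. The means were 797 ± 6.75 and 714 ± 73.6 CPM (SD, n = 3 each), with a log2 fold change of −0.16 (SE 0.08), or −0.08 without CRE+VAF347 replicate 3, and the gene was not called. *SLC11A2* encodes DMT1, which carries ferrous iron out of the endosome and across the gut surface, and lies on the minus strand of chromosome 12 from 50979401 to 51028566. Its libraries were at 76.2, 82.1 and 85.8 CPM with CRE and at 71.6, 74.3 and 68.2 CPM with CRE+VAF347. These groups did not overlap either, and the gene was not called, with means of 81.4 ± 4.84 and 71.4 ± 3.05 CPM (SD, n = 3 each) and a log2 fold change of −0.19 (SE 0.07). Over all genes tested, 14.8% had every CRE+VAF347 library below every CRE library. The ratio of *TFRC* to *SLC11A2* in TPM was 6.80 ± 0.417 with CRE and 6.97 ± 0.325 with CRE+VAF347.

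Ferritin, the hollow protein shell that stores iron, is built from heavy chains (*FTH1*), which oxidise the iron, and light chains (*FTL*), which help it to mineralise. *FTH1* lies on the minus strand of chromosome 11 from 61959718 to 61967634, and *FTL* on chromosome 19 (48965309 to 48966879, plus strand). *FTH1* was at 1658, 1729 and 1548 CPM with CRE and at 1789, 1800 and 1723 CPM with CRE+VAF347. The groups overlapped narrowly, CRE replicate 2 being above CRE+VAF347 replicate 3. The means were 1645 ± 91.5 and 1771 ± 41.5 CPM (SD, n = 3 each), with a log2 fold change of 0.11 (SE 0.06), or 0.06 without CRE replicate 3. *FTL* was at 586.6, 611.3 and 491.5 CPM with CRE and at 683.8, 664.4 and 603.8 CPM with CRE+VAF347. The lowest value came from CRE replicate 3, the library that stood apart. The log2 fold change of *FTL* was 0.21 (SE 0.09) with all libraries and 0.12 without CRE replicate 3, and neither chain was called.

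Per transcript length the heavy chain mRNA exceeded the light chain mRNA in every library. The ratio of *FTH1* to *FTL* in TPM was 2.32, 2.37 and 2.73 with CRE and 2.13, 2.23 and 2.35 with CRE+VAF347, with overlapping groups. The sum of both chains was 4199 ± 169 TPM with CRE and 4503 ± 111 TPM with CRE+VAF347. The ratio of *TFRC* to *FTH1*, uptake against storage, was 0.129, 0.124 and 0.127 with CRE and 0.101, 0.117 and 0.0960 with CRE+VAF347. These ratios did not overlap, and CRE+VAF347 replicate 3 had the lowest. Of all genes tested, 27.3% did not overlap between the groups in CPM. Such a share was not computed for ratios, and a shift between uptake and storage was not tested. Both chains have many processed pseudogenes, which can share reads with the parent gene. The 25 *FTH1* pseudogene rows summed to 29.06 to 41.39 counts per library, at most 0.258% of the sum with *FTH1*. The 16 *FTL* pseudogene rows summed to 17 to 30 counts, at most 0.527%.

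*IREB2* and *ACO1* encode the iron regulatory proteins, IRP2, which is degraded when iron is plentiful, and IRP1, which turns into cytosolic aconitase when it holds an iron-sulfur cluster. *IREB2* is on chromosome 15 (78437431 to 78501453) and *ACO1* on chromosome 9 (32384603 to 32454769), both on the plus strand. *IREB2* was at 121.5, 112.1 and 117.8 CPM with CRE and at 127.6, 121.0 and 127.5 CPM with CRE+VAF347, and its log2 fold change was 0.10 (SE 0.06). *ACO1* was at 118.2, 106.5 and 119.4 CPM with CRE and at 116.4, 107.9 and 117.2 CPM with CRE+VAF347, and its log2 fold change was −0.01 (SE 0.07), or 0.02 without CRE replicate 3. Both sets of libraries overlapped. The ratio of *IREB2* to *ACO1* in TPM was 0.989 ± 0.0223 with CRE and 1.01 ± 0.0445 with CRE+VAF347 (SD, n = 3 each). The sign of both small differences was not stable: of 18 fits and settings *IREB2* was above 0 in 15 and *ACO1* below 0 in 15. *IREB2* turned in the 3 limma fits on log2 TPM, and *ACO1* only in fits that left out a library.

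*NCOA4* encodes the receptor that delivers ferritin to the lysosome so that its iron is released. It lies on the minus strand of chromosome 10 from 46005088 to 46030623. The libraries were at 162.9, 148.9 and 182.9 CPM with CRE and at 183.0, 175.8 and 175.7 CPM with CRE+VAF347. The CRE libraries were more spread, and replicate 3 reached the CRE+VAF347 level. The log2 fold change was 0.11 (SE 0.08), from means of 165 ± 17.1 and 178 ± 4.21 CPM (SD, n = 3 each). Leaving out CRE replicate 3 gave 0.19, leaving out CRE replicate 2 gave 0.04, and the gene was called in neither fit.

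Compared per transcript length, storage was far above export. In TPM with CRE the order was *FTH1* (mean 2989), *FTL* (1211), *TFRC* (378), *NCOA4* (101), *SLC11A2* (55.9), *ACO1* (49.3), *IREB2* (48.8), *CP* (2.35) and *SLC40A1* (2.01), with *HEPH* at 0. The libraries of *SLC11A2*, *ACO1* and *IREB2* overlapped with those of their neighbours in this order, as did *CP* with *SLC40A1* in the CRE group, and the remaining neighbours were apart. With CRE+VAF347 the means were 3111, 1393, 326, 106, 46.7, 47.5, 48.0, 0.456 and 2.32 TPM in the same order of genes. *CP* was below *SLC40A1* there, and *SLC11A2*, *ACO1* and *IREB2* again overlapped. By mean TPM over the 6 libraries *FTH1* ranked 22 among all genes, *FTL* 95 and *TFRC* 412, against 13823 for *SLC40A1* and 14950 for *CP*.

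**Figure D2:**
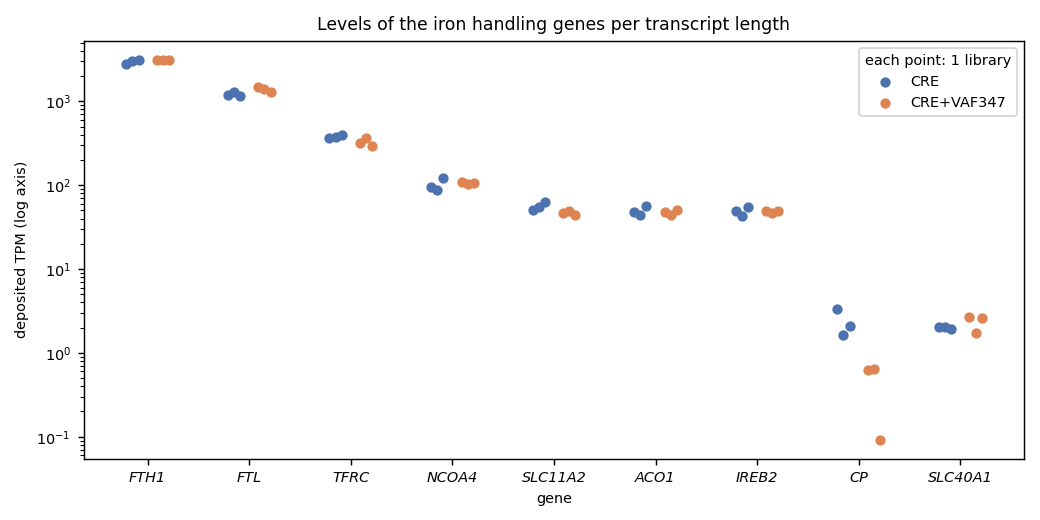
TPM of the 9 genes above 0 on a log axis, ordered by their mean level with CRE; each point is 1 library, coloured by group. Levels run from *FTH1* (mean 2989 TPM with CRE) to *SLC40A1* (2.01 TPM), and *CP* lies below *SLC40A1* with CRE+VAF347.

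Across all genes tested, calls numbered 340 of 15373 genes, or 2.21%, where a call needed an edgeR adjusted p below 0.05 together with a log2 fold change beyond 0.5 in either direction. 77 genes were higher with CRE+VAF347 (0.501%) and 263 were lower (1.71%). Of the 9 genes of this set that were tested, 0 were called higher and 1, *CP*, was called lower, and since the set was chosen on this contrast nothing is read from that count. The *CP* call was not made in the 3 limma fits on log2 TPM or with a transcript length offset, and DESeq2 gave it no adjusted p. 5 of the 9 had a positive and 4 a negative log2 fold change, with a median of 0.098 against 0.0096 over all genes tested. Without *CP* the median was 0.10, and the 8 values lay within the range between the 10th and 90th percentile of all genes (−0.31 to 0.26) except that of *SLC40A1* at 0.27. The libraries of the groups did not overlap for *CP*, *SLC11A2* and *TFRC*, all lower, where 14.8% of all genes did so lower and 12.5% higher.

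**Figure D3:**
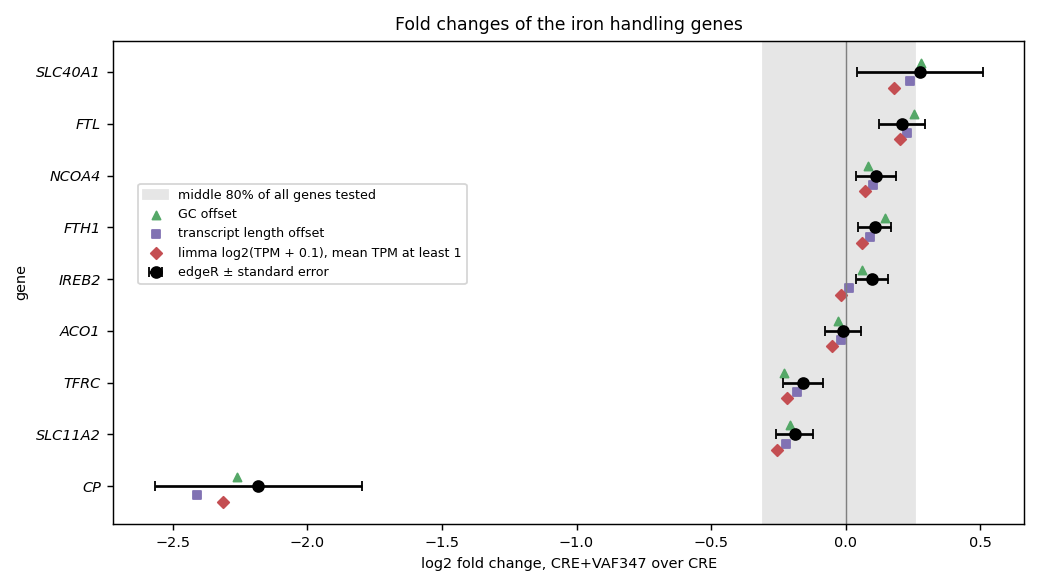
Log2 fold change of CRE+VAF347 over CRE for the 9 genes tested: black points with bars of 1 SE are from edgeR, coloured marks are the fits with a GC offset, with a transcript length offset and with limma on log2(TPM + 0.1), and the grey band runs from the 10th to the 90th percentile of all genes tested. *CP* lies at −2.18 in edgeR, and the other 8 genes between −0.19 and 0.27.

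The fold changes of all genes went down with the GC content of their transcripts (Spearman rho −0.346 over 11110 genes, which are not independent replicates). The 3 lowest genes of the set by GC content were *CP* (40.1%), *TFRC* (41.3%) and *IREB2* (44.7%), and the 2 highest were *FTH1* (54.8%) and *FTL* (56.0%). With a GC offset in the fit, the log2 fold change was −2.26 for *CP*, −0.23 for *TFRC*, −0.21 for *SLC11A2*, 0.14 for *FTH1* and 0.25 for *FTL*. The direction of these 5 values stayed the same, and none came closer to 0. *IREB2* and *NCOA4* did come closer, from 0.10 to 0.06 and from 0.11 to 0.08. With this offset *SLC40A1* was at 0.28 and *ACO1* at −0.03.

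The mean transcript length of each gene, recovered from the ratio of counts to TPM, served as a readout that did not choose the set. Over 13105 genes with enough counts, 0 (0%) differed at an adjusted p under 0.05 in limma, with a smallest adjusted p of 0.427 and 928 genes at an unadjusted p under 0.05. Of the 8 genes of the set with enough counts, *IREB2* had the largest log2 difference in length, 0.08 (SE 0.03, limma, adjusted p = 0.678). The others lay within 0.04 of 0 in either direction.

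The hairpin also allowed a description of genes outside the set, a list made after the data had been seen. Of 12 other genes with a match in the 5′ UTR, 7 were tested and 0 were called, with a median log2 fold change of −0.07, and 2 had an adjusted p under 0.05 at a smaller fold change (edgeR), where 3.21% of all genes tested did. Of 32 other genes with a match in the 3′ UTR, 29 were tested, 0 were called and 0 had an adjusted p under 0.05 at any fold change (edgeR), where 5.42% of all genes tested did, with a median of 0.06. The core sequence bound by AhR, GCGTG, was counted on both strands of the RefSeq promoter windows of 300 bases (GRCh38.p14). It occurs in 12832 of 35116 such windows (36.5%). The 4 windows of *SLC11A2* held 4, 1, 0 and 1 copies, that of *FTL* held 2, that of *ACO1* held 1 and those of *IREB2* held 1 and 0. None was found in the windows of *HEPH*, *SLC40A1*, *TFRC* or *NCOA4*, and *CP* and *FTH1* have no entry in that table.

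To place the set in the wider pathway, 137 other genes of iron, haem, copper and acute phase biology were listed in 8 groups, and 110 were tested. 4 were called higher and 6 lower, where 0.501% and 1.71% of all genes tested were, with a median log2 fold change of 0.02. Of the genes of these lists, *SERPINA3* and *BMP6* passed the filter on low counts through the CRE group alone, and without them 4 were called higher and 5 lower of 108. The calls were in uptake and reduction, acute phase proteins, haem, copper supply and lipid peroxide defence, and 0 were in the other 3 lists.

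Genes of iron uptake and reduction were called lower in 3 of 10 tested, with 0 higher and a median of −0.19, beside 1.71% lower, 0.501% higher and a median of 0.0096 over all genes tested. *STEAP4*, a metalloreductase of the cell surface and endosome that is induced in inflammation, was at 97.8, 105 and 105 CPM with CRE and at 51.3, 54.1 and 40.8 CPM with CRE+VAF347. It fell by 1.08 on the log2 scale (SE 0.09, edgeR adjusted p = 0.000119). *STEAP3*, the reductase of the transferrin endosome, fell by 0.76 (SE 0.10, edgeR adjusted p = 0.0019), from 23.8 ± 1.82 to 14.0 ± 1.20 CPM. *LCN2*, lipocalin 2, which withholds iron from bacteria by binding their siderophores, was at 146, 175 and 130 CPM with CRE and at 81.7, 81.1 and 64.1 CPM with CRE+VAF347. It fell by 0.99 (SE 0.12, edgeR adjusted p = 0.000695). All 3 had groups that did not overlap, where 14.8% of all genes tested did so lower. The *STEAP3* call was not made in the 3 limma fits on log2 TPM. Those of *STEAP4* and *LCN2* were not made in the limma fit on log2(TPM + 1) without a filter. The reductase *CYBRD1* (−0.22), the transporter *SLC39A14* (−0.15) and the lipocalin receptor *SLC22A17* (0.11) were not called.

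Acute phase proteins, the class to which ceruloplasmin belongs, held 6 genes tested of 17. 5 of them passed the filter on low counts in both groups, and of these 2 were called lower and 5 had a negative log2 fold change, with a median of −0.47. Over all genes tested 1.71% were called lower and 47.9% had a negative value. *CFB*, complement factor B, fell by 1.10 (SE 0.18, edgeR adjusted p = 0.0059), from 21.0 ± 3.96 to 9.90 ± 2.39 CPM. *C3*, the central complement protein and the most abundant of these, was at 757, 979 and 1029 CPM with CRE and at 622, 612 and 549 CPM with CRE+VAF347, and fell by 0.63 (SE 0.10, edgeR adjusted p = 0.0055). The serum amyloids *SAA1* and *SAA2* were at −0.31 and −0.47 and *SERPINA1* at −0.31, and these 3 were not called. *SERPINA3*, a serine protease inhibitor, is the gene that passed the filter through the CRE group alone. It was at 2.80, 3.53 and 2.34 CPM with CRE and at 1.57, 0.631 and 0.599 CPM with CRE+VAF347, a log2 difference of −1.64 (SE 0.36). It was called in the fit of all libraries, but not without CRE replicate 1, CRE replicate 2, CRE+VAF347 replicate 2 or CRE+VAF347 replicate 3, each left out alone. Without CRE replicate 3, the library that stood apart, *SAA1* and *SAA2* were called lower as well. In the limma fit on log2(TPM + 1) without a filter, 0 genes of the wider lists were called lower. The *CFB* and *C3* calls were therefore not made there. Both limma fits filtered on TPM called 3 genes of the wider lists lower, *STEAP4* and *LCN2* among them.

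**Figure D4:**
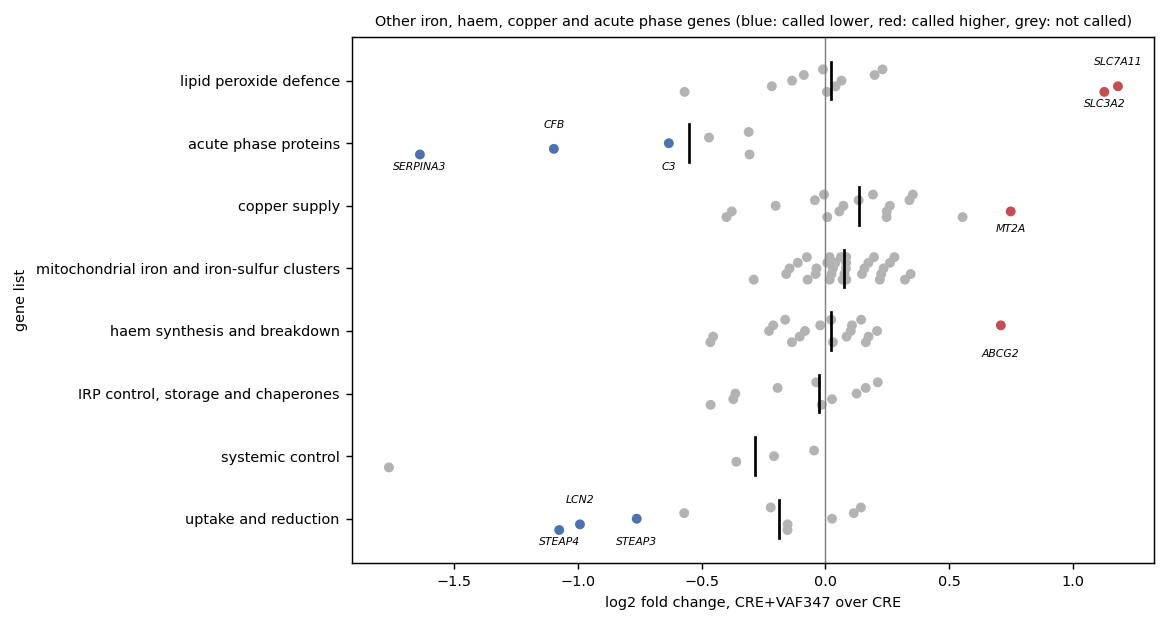
Log2 fold change (CRE+VAF347 over CRE) of the 110 genes tested in the 8 wider lists; each point is a gene, black bars are list medians, and called genes are coloured and named. The acute phase points all lie below 0, with a median of −0.55, or −0.47 without *SERPINA3*. That gene is coloured as called but passed the filter on low counts through the CRE group alone. The list of iron uptake and reduction holds 3 called genes, all lower: *STEAP4*, *STEAP3* and *LCN2*.

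The remaining called genes were higher. Of these 4 calls at most 1 was made in each of the 3 limma fits on log2 TPM. *SLC7A11* and *SLC3A2*, the pair that forms the cystine importer supplying glutathione and so protecting lipids from iron-driven oxidation, were both called. *SLC7A11* was at 7.04, 7.06 and 8.32 CPM with CRE and at 16.4, 16.5 and 18.1 CPM with CRE+VAF347, and rose by 1.18 on the log2 scale (SE 0.12, edgeR adjusted p = 0.00028). *SLC3A2* rose by 1.13 (SE 0.06, edgeR adjusted p = 2.35e-06), from 259 ± 13.8 to 566 ± 13.0 CPM. They were 2 of 12 genes tested in lipid peroxide defence, where 0.501% of all genes tested were called higher. The median of this list was 0.02, and *GPX4*, the enzyme that reduces lipid peroxides, was at −0.01. Whether the rise of *SLC3A2* belongs to the cystine importer was not tested. In the haem list, 1 of 19 genes tested was called, higher, where 0.501% of all genes were: *ABCG2*, an exporter of porphyrins and many drugs, rose by 0.71 (SE 0.08, edgeR adjusted p = 0.000733), from 28.4 ± 2.00 to 46.5 ± 3.29 CPM. The haem-binding protein *PGRMC1* (−0.02) and haem oxygenase 2, *HMOX2* (0.11), were not called, and the haemopexin receptor *LRP1* was at −0.45, under the fold threshold. In the copper list, 1 of 17 was called, higher, beside the same 0.501% over all genes tested. *MT2A*, a metallothionein that binds zinc and copper, rose by 0.75 (SE 0.15, edgeR adjusted p = 0.0170), from 122 ± 33.1 to 205 ± 16.0 CPM. The *MT2A* call was lost without any one of the CRE+VAF347 libraries, with edgeR adjusted p-values of 0.0546 to 0.0953.

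The other lists held no called gene. All 32 genes of mitochondrial iron and iron-sulfur cluster assembly were tested, with a median of 0.07, among them the chaperone *HSPA9* (−0.04), mitoferrin 1, *SLC25A37* (−0.16), and *CIAO1* (0.01) of the cytosolic assembly machinery. Of the IRP control, storage and chaperone list 10 of 12 were tested, with a median of −0.03. Its iron chaperones *PCBP1* and *PCBP2* were at −0.19 and 0.03. *EPAS1*, which encodes a hypoxia-inducible factor and is a known target of the iron regulatory proteins although the search described above did not match it, was at −0.36 (edgeR adjusted p = 0.0062), under the fold threshold. Of the systemic control list 4 of 8 were tested, all 4 with negative values and a median of −0.28, or −0.21 without *BMP6*, and *HAMP*, which encodes the iron hormone hepcidin, had at most 1 count in any library. *HFE* was at −0.21, *ERFE* at −0.36 and *NEO1* at −0.05.

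**Figure D5:**
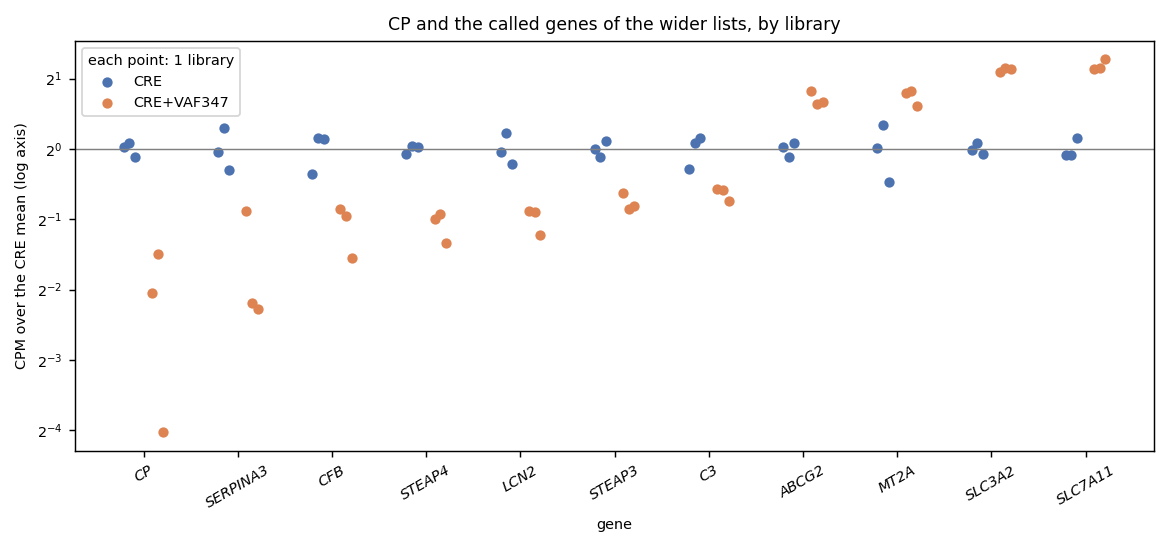
CPM of *CP* and of the 10 called genes of the wider lists in each of the 6 libraries, divided by the mean of the CRE libraries of that gene, on a log axis; each point is 1 library, coloured by group. *CP* has the lowest point of the plot, CRE+VAF347 replicate 3 at 0.200 CPM, and *SLC7A11* and *SLC3A2* the highest.

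The genes whose pattern over the 6 libraries was most like that of *CP* were ranked by the root mean square distance of log2 CPM centred on each gene's mean, over 14121 genes with a median distance of 1.18. The nearest were *FAHD2P1* (distance 0.397), *EPHA4* (0.399), *KLHDC7B* (0.419), *VIM* (0.459) and *INHBA* (0.466). Their log2 fold changes were −1.65, −1.86, −2.22, −1.32 and −1.35, and all but *FAHD2P1* were called lower (edgeR). *FAHD2P1* and *EPHA4* passed the filter on low counts through the CRE group alone, so nothing is read from the *EPHA4* call. Their means were 1.24 and 1.44 CPM with CRE, and 0.396 and 0.389 CPM with CRE+VAF347. *EPHA4* encodes an ephrin receptor, *VIM* the intermediate filament vimentin and *INHBA* the activin A subunit. On log2(TPM + 0.1) 3 of these 5 remained among the nearest 5. Of the genes called lower in the wider lists, chosen here after their values were seen, *SERPINA3* ranked 14, *CFB* 19, *STEAP4* 21, *LCN2* 40 and *C3* 273. The ranking rests on 6 libraries and follows the group difference by which *CP* was chosen.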

How the data were processed

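HBECs were profiled by RNA-seq in 3 CRE and 3 CRE+VAF347 libraries, assigned from the sample labels; 0 columns were left unmatched. The deposited expected counts (estimated counts) were made by the authors with Salmon on paired-end reads from poly(A) libraries (hg38 per the labels), summed per gene symbol and not scaled to depth; the Salmon version and annotation are not given in the sources used here. TPM, also deposited, were estimated by the authors alongside the counts. The authors' deposited DESeq2 results table was not used here.

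All 61228 symbols were found in GENCODE v44 on GRCh38. Counts were rounded (39.3% of values above 0 had decimals). The fit used edgeR 4.0.16 in R 4.3.3, with genes kept by filterByExpr, TMM scaling, the quasi-likelihood test and Benjamini-Hochberg adjustment over all genes tested. CPM use TMM library sizes. A call needed an adjusted p below 0.05 together with a log2 fold change beyond 0.5 in either direction. Transcript lengths (genes with at least 20 counts in every library) and log2(TPM + 1) were tested with limma 3.58.1. Scripts were tested on simulated data.

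The genes and lists were chosen with earlier results of these data known. From each wider list, the text names called genes, up to 6 by fold change, and up to 3 genes not called, by highest CPM; other named genes are marked or stand outside that rule (*HEPHL1*, *HAMP*). Alternatives were DESeq2 1.42.0, other filters and pseudocounts, offsets for GC content and transcript length, a replicate block and leaving out each library. Depth was 8873160 to 10750283 counts. A level of 3 counts, the limit that a count of 0 allows, covers counting error only.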

Additional observations from a re-analysis of the deposited data

How the results depend on the processing

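The log2 fold changes of *CP*, *SLC40A1*, *SLC11A2*, *TFRC*, *FTH1*, *FTL* and *NCOA4* kept their direction in every fit run. That of *CP* was −1.19 with limma on log2(TPM + 1), with or without a filter on TPM, −2.31 on log2(TPM + 0.1) and −2.41 with a transcript length offset, and it was not called in these fits, so the count of genes of the set called lower was 0 there; it was also 0 with a minimum of 10 counts in every library, where *CP* is not tested. Over all genes, 77 higher and 263 lower calls became 187 and 411 without a filter, 34 and 50 on log2(TPM + 1), 32 and 52 on log2(TPM + 0.1), 20 and 12 on log2(TPM + 1) without a filter, and 207 and 626 at any fold change. With a transcript length offset 165 were lower. With one library left out, calls ranged from 58 to 110 higher and from 143 to 270 lower, the lowest of the latter without CRE+VAF347 replicate 3. In the wider lists, 4 higher and 6 lower became 1 and 3 in both filtered TPM fits, 1 and 0 without a filter, and 4 and 10 at any fold change, with 3 to 5 higher and 5 to 8 lower when one library was left out. The cause of these shifts was not tested. Deviations from the group mean were hardly correlated between libraries of the same replicate number (correlations 0.0529, 0.0327 and 0.0154). The labels do not say whether libraries of the same number share a culture or batch. With the replicate number as a block, 78 genes were called higher and 241 lower, *CP* was at −2.21 and still called, and the *EPHA4* call was lost. For the other named genes, 587 of 658 values kept their direction and side of the thresholds, 4 became calls, 45 lost one, 4 had no adjusted p in DESeq2, and 18, from 6 genes never called, turned direction. Summing pseudogene rows into *FTH1*, *FTL* and *CP* was added after the data were seen and changed no count of calls, with *CP* at −2.19. Depth limits *CP*, *SLC40A1* and *HEPH*, each at under 40 counts per library.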

Other observations

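*BMP6* and *PROM2*, both chosen after their values were seen, are 2 of the genes of the wider lists that were not called. *BMP6* encodes the signal by which the liver raises hepcidin when iron is plentiful. It was at 1.35, 1.47 and 1.22 CPM with CRE and at 0.112, 0.736 and 0.299 CPM with CRE+VAF347, so that the groups did not overlap. It passed the filter on low counts through the CRE group alone, was not called, and is given by its values only. *PROM2* encodes prominin 2, a membrane protein linked to the release of ferritin from cells. Its log2 fold change was −0.37 (edgeR adjusted p = 0.0053), under the fold threshold.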
